A study of Mus musculus with 4 samples.

Results

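Small nucleolar RNA host genes of the Snhg series were described in mouse morulae, the stage at which the embryo compacts, after knockdown of Nr1h2, the gene of the oxysterol-activated nuclear receptor LXRβ. The 10 genes are Snhg1, Snhg3, Snhg4, Snhg5, Snhg6, Snhg11, Snhg12, Snhg15, Snhg17 and Snhg20, out of 13658 genes in the authors' deposited table. They were chosen by symbol and by a mean normalized count of 100 or more, a value of the same comparison, so their values are a description and no test was run on them. The table holds 17 genes of the series, 1 of them (Snhg16) under its older symbol 1810032O08Rik, and 13 of the 17 reach that mean. Snhg8, Snhg14 and Snhg16, which reach it but were not among the 10, are given beside them. Just inside the limit the listed gene with the lowest mean was Snhg12 at 127, and just outside it lay Snhg18 at 40.9 and Snhg7 at 40.0 normalized counts in the authors' deposited table.

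The study compared 2 samples of siNr1h2 morulae, injected with a pool of small interfering RNAs against Nr1h2, with 2 samples of siNT morulae, injected with a non-targeting pool. All embryos carried the wild-type genotype, received 4 to 5 pL of 100 µM siRNA at the 1-cell stage and were cultured in M16 medium to the morula stage. Polyadenylated RNA was profiled by full-length cDNA sequencing. The number of embryos per sample and whether replicates came from separate injections are not in the labels, so p-values measure only the spread between these samples, which may be technical.

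Small nucleolar RNAs (snoRNAs) guide the chemical modification and cleavage of ribosomal RNA, and most of them are cut from the introns of longer host transcripts. In most host genes of the Snhg series the spliced exons are taken for the by-product. They are polyadenylated, mostly encode no conserved protein, and often begin with the terminal oligopyrimidine (TOP) tract that ribosomal protein mRNAs also carry. Several are translated near their start and then destroyed by nonsense-mediated decay, so that their level follows translation and decay as well as transcription. The counts here measure the polyadenylated hosts, since mature snoRNAs have no poly(A) tail. Spliced hosts and polyadenylated forms that keep an intron cannot be told apart in counts per gene.

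All 9 listed genes found in the GENCODE annotation of the GRCm38 build contain at least 1 annotated snoRNA in an intron of a transcript on the same strand, and Snhg4 had no entry there. The snoRNAs of Snhg5 and Snhg20, the 2 genes past the authors' test, are shown because they are of different classes. Snhg5 contains Snord50a (chr9:88521529-88521600, minus strand) and Snord50b (chr9:88521797-88521868, minus strand), the U50 RNAs that guide ribosomal RNA methylation. Snhg20 contains the model Gm26083 (chr11:117077243-117077435, plus strand), and its human counterpart hosts a small RNA of Cajal bodies. The sequences are from GENCODE transcripts on GRCm38, written in DNA letters. Capitals mark TGATGA near the 5′ end and CTGA near the 3′ end, the letters of boxes C and D, in the Snord50 pair, and ACA near the 3′ end in Gm26083.
Snord50a: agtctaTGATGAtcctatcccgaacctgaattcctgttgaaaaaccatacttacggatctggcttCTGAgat
Snord50b: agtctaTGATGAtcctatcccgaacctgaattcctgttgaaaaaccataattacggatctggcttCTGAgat
Gm26083: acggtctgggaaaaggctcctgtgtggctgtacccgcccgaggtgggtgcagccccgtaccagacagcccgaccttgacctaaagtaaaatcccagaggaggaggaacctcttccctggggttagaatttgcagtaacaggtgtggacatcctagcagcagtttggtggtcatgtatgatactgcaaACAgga

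Snord50a and Snord50b are 72 bases long and differ by 1 substitution, C50A, counted from 1 at the 5′ end of Snord50a, which has the first base. Gm26083 has 193 bases. Among the other listed hosts, Snhg1 contains 8 annotated snoRNAs, 5 of them with both box C and box D letters, Snhg3 contains Snora73a and Snora73b of 205 bases, and Snhg6 contains Snord87. Snhg15 contains Snora9, Snhg11 contains 2 models and Snhg17 contains 3 models with ACA near the 3′ end. Snhg12 has 5 annotated entries, Snora44, Snora61, Snord99 and a pair of overlapping entries named Snora16a.

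The start of 8 listed genes is shown because a TOP tract, where present, lies at the first transcribed base. Each line spans 20 bases on either side of the start in RefSeq (GRCm38.p6, gene strand, the start being the 21st base, first listed start), and capitals mark the longest run of 5 or more pyrimidines that opens with a C. Snhg4 and Snhg6 are named only.
Snhg20: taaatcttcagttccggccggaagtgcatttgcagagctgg
Snhg5: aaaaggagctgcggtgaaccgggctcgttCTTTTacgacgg
Snhg11: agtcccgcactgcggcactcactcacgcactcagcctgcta
Snhg1: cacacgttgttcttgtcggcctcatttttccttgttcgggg
Snhg3: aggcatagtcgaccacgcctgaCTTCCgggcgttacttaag
Snhg12: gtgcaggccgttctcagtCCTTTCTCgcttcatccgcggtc
Snhg15: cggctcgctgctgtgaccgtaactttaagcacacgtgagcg
Snhg17: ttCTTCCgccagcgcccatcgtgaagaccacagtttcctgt

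Such a run was found in 4 of the 8 windows (Snhg5, Snhg3, Snhg12 and Snhg17) and in 46.9% of the first listed starts of 27025 genes, searched on the gene's strand only. With a minimum of 7 bases it was found in 1 of the 8, Snhg12, and in 19.0% of all. Counting the start as base 1 and the base before it as -1, the run of Snhg12 spans -2 to 6. The runs of Snhg3 and Snhg5 lie after the start, at 3 to 7 and 10 to 14. That of Snhg17 lies before it, at -18 to -14. A run in the window is therefore not a count of TOP tracts at the first transcribed base. The first minimum was set after the windows had been seen, and annotated starts can lie beside the start used in morulae.

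The target itself was lower in siNr1h2, with a log2 fold change for Nr1h2 of -2.33 ± 0.19 (SE, authors' deposited table). The 9 morula markers looked for all had rows, with mean normalized counts of 90.8 to 2181, and 6 of the 9 lay above 0 in log2 fold change. The keratin gene Krt8 was called lower at -0.50 ± 0.14 (log2, SE, adjusted p = 0.0211, authors' deposited table). Not past the test were the pluripotency gene Pou5f1 at 0.43 ± 0.15 (adjusted p = 0.117), the keratin gene Krt18 at -0.27 ± 0.13 (adjusted p = 0.362) and Tfap2c at 0.15 ± 0.14 (log2, SE, authors' deposited table). Of 8 markers of cumulus and granulosa cells 2 had rows, at means of 1.94 and 2.89, and none of 5 sperm markers had a row. The authors' adjusted p was available for 12069 genes, and those below 0.05 are named called: 1.98% of these genes were called in either direction, 0.456% higher and 1.52% lower in siNr1h2. In bulk samples fewer cells of a type and less RNA per cell cannot be told apart.

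Among the 10 host genes, Snhg20 and Snhg5 were higher in siNr1h2 than in siNT morulae by the authors' test and none was lower. Of all genes with an adjusted p, 0.456% were called higher and 1.52% lower. Snhg20, whose spliced RNA is a long non-coding RNA, was higher by a factor of 1.82 (95% interval 1.38 to 2.39, authors' deposited table). Snhg5, the U50 host, was higher by a factor of 1.41 (95% interval 1.18 to 1.69, authors' deposited table). The other 8 did not pass, and the authors' deposited table gives them log2 fold changes between 0.02 and 0.57. All 10 values were above 0, as were those of 50.6% of all genes with an adjusted p; measured against ribosomal protein genes, whose median lay at 0.11, 8 of 10 were above 0. The median log2 fold change of the 10 was 0.39, against 0.0042 for all genes with an adjusted p. These counts come from the comparison that chose the genes and carry no test.

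**Figure D1:**
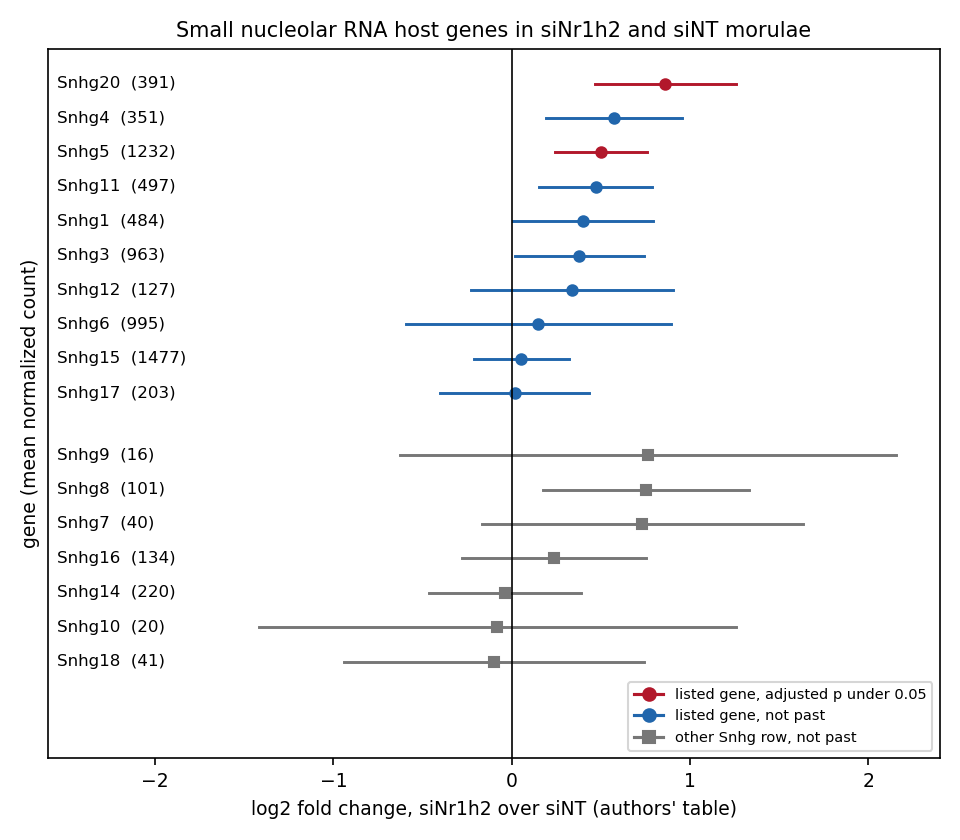
Log2 fold change of siNr1h2 over siNT with its 95% interval (1.96 standard errors either way) for the 10 listed Snhg genes (circles) and the other 7 Snhg rows (squares), with the mean normalized count in brackets. Snhg20 at 0.86 and Snhg5 at 0.50 are the 2 called genes, and Snhg17 at 0.02 is the lowest of the 10.

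The table holds 1 mean over all samples and 1 fold change per gene, so values per sample cannot be given and an overlap of the groups cannot be read. Snhg20 had a mean normalized count of 391 and a log2 fold change of 0.86 ± 0.20 (SE, adjusted p = 0.0032, authors' deposited table). Of all genes with an adjusted p, 4.00% had a higher log2 fold change. The gene contains a single annotated snoRNA, and its start window holds no pyrimidine run of the kind searched. Its 95% interval, from 0.47 to 1.26 on the log2 scale, lay wholly above those of Snhg15 and Snhg17. These were the only 2 of 45 pairs of listed genes with separate intervals.

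Snhg5 had a mean normalized count of 1232 and a log2 fold change of 0.50 ± 0.13 (SE, adjusted p = 0.0147, authors' deposited table). Its interval ran from 0.24 to 0.76. Its standard error was the smallest of the 10, and the higher log2 fold change of Snhg4, 0.57, did not pass. When fold changes were centred on ribosomal protein genes, the log2 fold change of Snhg5 was 0.39 with an adjusted p of 0.0621 (Benjamini-Hochberg over the authors' Wald test, centred), and that of Snhg20 was 0.75 with an adjusted p of 0.00988.

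Snhg4 and Snhg11 had fold changes near that of Snhg5 with larger standard errors, and neither passed. Snhg4, whose human counterpart hosts an H/ACA snoRNA, had a mean normalized count of 351 and a log2 fold change of 0.57 ± 0.20 (SE, adjusted p = 0.102, authors' deposited table). Snhg11, annotated as protein-coding in GENCODE and as a long non-coding RNA in RefSeq, had a mean of 497 and a log2 fold change of 0.47 ± 0.16 (SE, adjusted p = 0.106, authors' deposited table). Their 95% intervals, 0.19 to 0.95 and 0.15 to 0.79, both contained that of Snhg5.

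Snhg1 and Snhg3 followed with intervals that just cleared 0. Snhg1, the classic host whose introns rather than exons carry the product, had a mean of 484 and a log2 fold change of 0.40 ± 0.20 (SE, adjusted p = 0.363, authors' deposited table). Snhg3, the host of the U17 RNAs needed for cleavage of the ribosomal RNA precursor, had a mean of 963 and a log2 fold change of 0.38 ± 0.18 (SE, adjusted p = 0.347, authors' deposited table). With Snhg20, Snhg5, Snhg4 and Snhg11 they make 6 of 10 genes above 0 at an unadjusted p under 0.05, a side of the test that 5.97% of all genes with an adjusted p reached. This count has the same limit as those above.

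The remaining 4 listed genes had intervals that included 0. Snhg12, with the lowest mean of the 10 at 127, stood at 0.34 ± 0.29 (log2, SE, authors' deposited table). Snhg6 stood at 0.15 ± 0.38 (SE) with a mean of 995 in the same columns of the authors' deposited table. Snhg15, whose RNA is short-lived in human cells, stood at 0.05 ± 0.14 (SE) at a mean of 1477, and Snhg17 at 0.02 ± 0.21 (SE) at a mean of 203 in the authors' deposited table. The intervals bound what these data allow: Snhg15 between 0.862 and 1.25 times the siNT level, Snhg17 between 0.756 and 1.35 times, and Snhg6 only between 0.662 and 1.85 times.

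**Figure D2:**
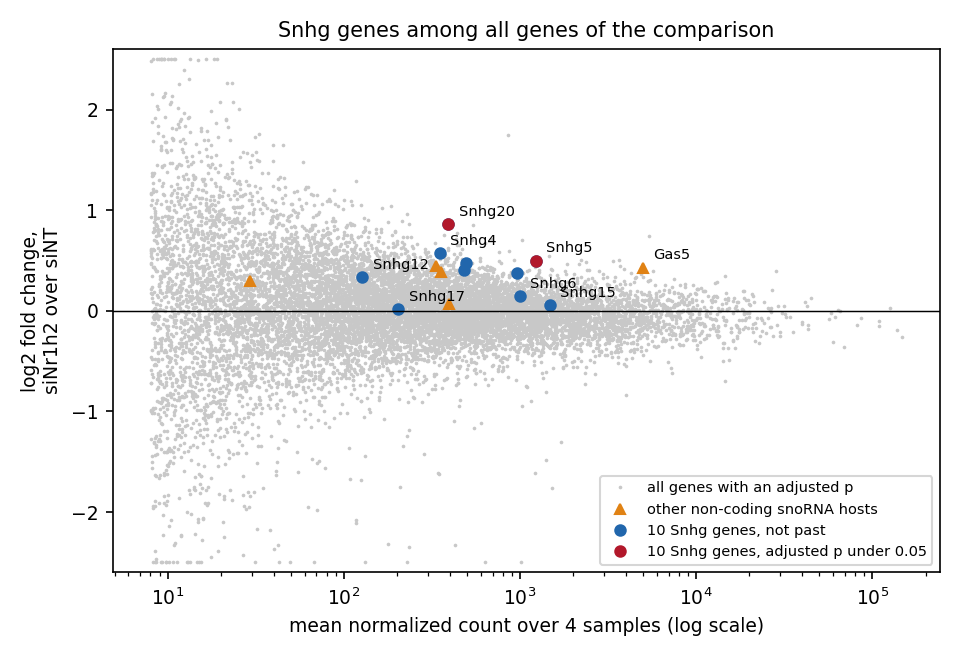
Log2 fold change of siNr1h2 over siNT against the mean normalized count over 4 samples (log axis) for all genes with an adjusted p (grey, values beyond 2.5 drawn at the edge), the 10 Snhg genes (circles) and other non-coding snoRNA hosts (triangles). The 10 circles lie above the line at 0, between 0.02 for Snhg17 and 0.86 for Snhg20; centred on ribosomal protein genes, 8 of them do.

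Divided by transcript length, the hosts differed widely in level. Per kb of the median spliced GENCODE transcript, Snhg15 had 2475 normalized counts, Snhg3 2203, Snhg6 1780 and Snhg5 1577. Snhg1 had 880 and Snhg20 739 per kb, followed by Snhg11 at 374, Snhg17 at 278 and Snhg12 at 139 per kb. These are means over both groups, without an error, and the transcript in use may be shorter or longer than the median. The called genes, Snhg5 and Snhg20, were neither the highest nor the lowest of the 9 with a length, and Snhg15, the highest per kb, stood at 0.05 (log2 fold change, authors' deposited table).

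Precision differed among hosts of similar count. Of 2424 genes with means between 500 and 2000, the median standard error was 0.15. Only 13 of them (0.536%) had a larger one than Snhg6 at 0.38, and 44 (1.82%) a larger one than Snhg3 at 0.18. Snhg5 and Snhg15 at 0.13 and 0.14 lay below the median. Which sample the standard error of Snhg6 comes from cannot be read from this table. Both Snhg6 and Snhg3 overlap other genes in the GRCm38 annotation. Shared exonic bases, here and below, were counted outside transcripts typed as retained introns. Snhg3 shares 135 bases with Rcc1 on the same strand, itself at 0.09 ± 0.15 (log2 fold change, SE, authors' deposited table), and 705 with the opposite-strand gene Gm17300. Snhg6 shares 127 with the opposite-strand gene Mcmdc2. Neither Gm17300 nor Mcmdc2 had a row under that symbol in the authors' deposited table. The library kit does not mark strand, so reads over shared bases cannot be told apart, and their part in these values was not tested.

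**Figure D3:**
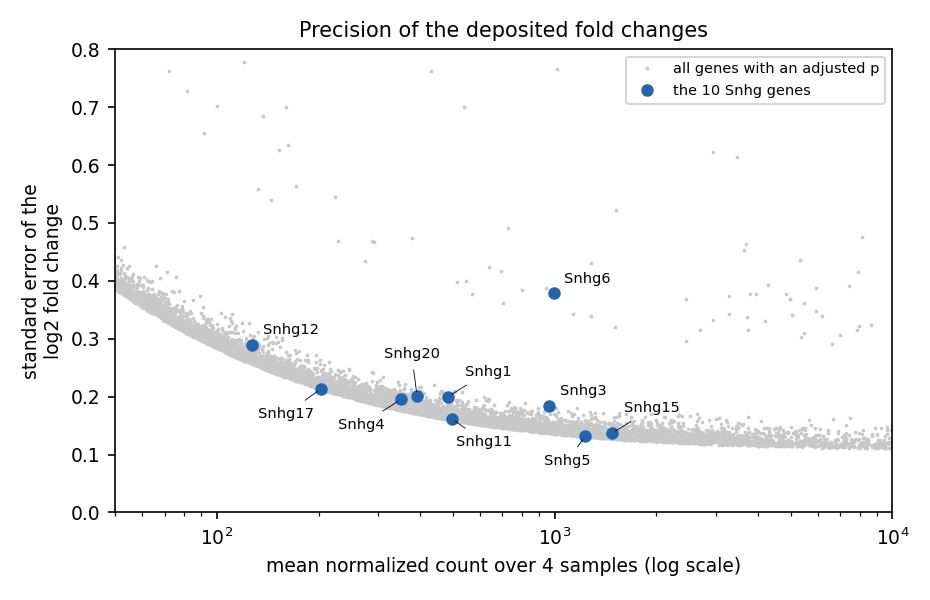
Standard error of the log2 fold change against the mean normalized count (log axis) for all genes with an adjusted p (grey, within the range drawn) and the 10 Snhg genes (blue). Snhg6 at 0.38 stands far above the band of genes with similar counts, and Snhg3 at 0.18 at its upper edge.

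Snhg8, Snhg16 and Snhg14 also reach the mean of 100 and were not among the 10. Snhg8, the host of Snora24, had a mean of 101 and a log2 fold change of 0.75 ± 0.30 (SE, adjusted p = 0.195, authors' deposited table). Snhg16, which contains Snord1a, Snord1b and Snord1c, stood at 0.24 ± 0.26 (SE) at a mean of 134 in the authors' deposited table, and shares 497 exonic bases with St6galnac2 on the other strand. Snhg14, the long host antisense to the imprinted gene Ube3a with 208 annotated snoRNAs, 82 of them in an intron of an annotated transcript, stood at -0.04 ± 0.22 (SE) at a mean of 220 in the authors' deposited table. It shares 1803 exonic bases with Ube3a on the other strand, so the reads of Snhg14 and Snhg16 are uncertain. With these 3 the median log2 fold change over 13 genes was 0.38, and 12 of 13 lay above 0. The last 4 rows, Snhg7, Snhg9, Snhg10 and Snhg18, had means of 15.7 to 40.9 and log2 fold changes between -0.10 and 0.76, and none passed in the authors' deposited table.

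Other non-coding hosts outside the series lay in the same range, though none was called. Gas5, whose RNA is a textbook target of nonsense-mediated decay and TOP control, was the most abundant at a mean of 4991, with a log2 fold change of 0.43 ± 0.15 (SE, adjusted p = 0.105, authors' deposited table). Zfas1, the host of Snord12, stood at 0.44 ± 0.21 (SE) and Dancr, the host of Snora26, at 0.38 ± 0.18 (SE) in the authors' deposited table. The 5 genes with rows, Epb41l4aos and Rian among them, lay above 0, and the median of their log2 fold changes was 0.38. Protein-coding genes known as snoRNA hosts, ribosomal protein and translation factor genes among them, had a median of 0.07 over 41 genes. Of these, 29 lay above 0, 12 below and 0 were called, against 1.98% of all genes with an adjusted p. An unadjusted p under 0.05 was reached by 7 of the 41, and by 1602 of the 12069 genes with an adjusted p. Centred on ribosomal protein genes the median of the 41 was -0.034. With that centring 3 of them were called lower, as were 448 of all genes with an adjusted p. These 3 were Wdr43, Eif4g2 and Ncl, the last named after its value was seen. The centred median of the 5 non-coding hosts was 0.28 with 0 called. The difference between the medians was not tested. The protein-coding hosts with the smallest p-values were Eif4a2, an initiation factor gene, at 0.36 ± 0.12 (SE, adjusted p = 0.0969), and on the other side Wdr43 and Eif4g2 at -0.37 ± 0.12 and -0.32 ± 0.11 (SE) in the authors' deposited table.

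Of 24 genes that build snoRNA particles or trim snoRNAs, 0 were called by DESeq2, against 1.98% of all genes with an adjusted p. An unadjusted p under 0.05 was reached by 3 of the 24, and by 1602 of the 12069 genes with an adjusted p. Over 8 core proteins the median log2 fold change was 0.04 (-0.063 centred on ribosomal protein genes), with Snu13, the box C/D RNA-binding protein, at -0.25 ± 0.12 (SE), Nop56 at 0.17 ± 0.13 (SE) and Nop58 at 0.10 ± 0.13 (SE) in the authors' deposited table. Of 11 assembly factors 8 lay below 0, with a median of -0.13. Znhit3, which was called lower when centred on ribosomal protein genes (adjusted p = 0.0115), stood at -0.37 ± 0.13 (SE, adjusted p = 0.118), Znhit6 at -0.27 ± 0.15 (SE) and Nufip1 at -0.26 ± 0.14 (SE) in the authors' deposited table. Of 5 genes for intron debranching and end trimming 4 lay below 0, among them Parn at -0.32 ± 0.16 (SE) and Exosc10 at -0.32 ± 0.18 (SE), while the debranching enzyme gene Dbr1 stood at 0.37 ± 0.24 (SE) in the authors' deposited table.

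Among factors that act on the spliced hosts, 1 was called, the TOP regulator gene Larp1. Of all genes with an adjusted p, 1.98% were called and 0.456% were called higher. No call fell among 15 nonsense-mediated decay factors, whose median log2 fold change was 0.03 (-0.076 centred on ribosomal protein genes), with Casc3 at 0.34 ± 0.15 (SE), Smg5 at 0.25 ± 0.17 (SE) and Upf3b at 0.22 ± 0.14 (SE) in the authors' deposited table. Larp1, which encodes a protein that binds the TOP tract and is 1 of 9 listed genes that control the translation of TOP mRNAs, was 1.38 times higher in siNr1h2 (95% interval 1.15 to 1.66; log2 fold change 0.47 ± 0.13, SE, adjusted p = 0.0333, authors' deposited table). Centred on ribosomal protein genes, Larp1 stood at 0.36 with an adjusted p of 0.104 (Benjamini-Hochberg, centred Wald test), and the call was lost. The mTOR activator gene Rheb stood at -0.28 ± 0.13 (SE), the poly(A)-binding protein gene Pabpc1 at -0.14 ± 0.11 (SE) and the mTOR inhibitor gene Tsc1 at 0.33 ± 0.30 (SE) in the authors' deposited table. The median of these 9 was -0.14, opposite in sign to the value of Larp1.

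**Figure D4:**
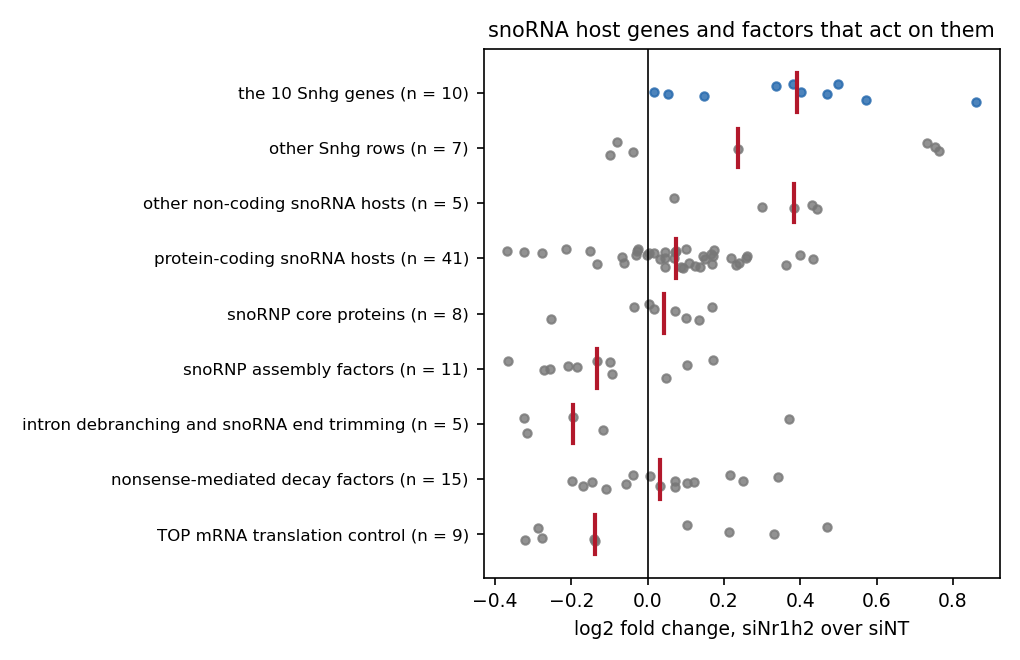
Log2 fold change of siNr1h2 over siNT for each gene (points) of the 10 Snhg genes, the other Snhg rows, other host genes and factors that act on snoRNAs or their hosts, with the median of each list (red bar). The medians are 0.39 for the 10 Snhg genes, 0.38 for other non-coding hosts and 0.07 for protein-coding hosts, the last turning to -0.034 when centred on ribosomal protein genes.

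The promoters of the 2 called genes are shown because Nr1h2 acts through sites built from the letters AGGTCA. They are 300 bases from RefSeq (GRCm38.p6), with 250 before and 50 from the start on, at chr11:117076533-117076832, plus strand for Snhg20 and chr9:88522848-88523147, minus strand for Snhg5. Capitals mark the pyrimidine run of Snhg5, which lies after the start, at bases 10 to 14 of the transcript as annotated.
Snhg20: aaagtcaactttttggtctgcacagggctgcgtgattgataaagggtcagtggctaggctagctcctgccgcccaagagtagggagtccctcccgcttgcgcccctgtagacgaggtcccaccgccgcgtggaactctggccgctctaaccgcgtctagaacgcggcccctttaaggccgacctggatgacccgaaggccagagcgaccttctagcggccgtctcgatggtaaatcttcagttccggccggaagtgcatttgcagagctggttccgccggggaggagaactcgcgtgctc
Snhg5: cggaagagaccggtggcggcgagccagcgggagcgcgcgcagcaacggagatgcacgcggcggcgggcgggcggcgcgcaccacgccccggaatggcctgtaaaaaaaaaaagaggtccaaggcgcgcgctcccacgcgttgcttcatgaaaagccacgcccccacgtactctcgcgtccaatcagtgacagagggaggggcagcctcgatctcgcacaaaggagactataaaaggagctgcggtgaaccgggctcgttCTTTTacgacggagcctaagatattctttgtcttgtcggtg

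AGGTCA was searched on both strands, and none of the 8 listed genes with a promoter held it, against 16.0% of the promoters of 27025 genes. The direct repeat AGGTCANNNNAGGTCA, which contains it, was in 0 of 8 and in 0.0111% of all. CACGTG, the E-box bound by MYC, was in 1 of 8, Snhg15, and in 7.24% of all, and does not overlap AGGTCA in its letters. A match or its lack describes these 300 bases only and says nothing about the factor.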

How the data were processed

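Per the labels' protocols, cDNA from morulae was made with the SMART-Seq v4 kit and libraries with Nextera XT. The submitters' processing notes name STAR, RSEM, HTSeq 0.12.4, DESeq2, edgeR, Cufflinks 2.2.1 and build mm9, without roles or parameters. The authors deposited 1 table of DESeq2 results, per the file headers. As deposited by the authors, it holds the mean normalized count (a signal: counts over size factors), the log2 fold change of siNr1h2 over siNT with its standard error, the Wald statistic (a score), the p-value and the adjusted p-value. There are no values per sample, so depth is unknown, no fit was repeated and 0 per-sample columns were left out. The deposited adjusted p-values equalled Benjamini-Hochberg values over 12069 genes; the other 1589 genes had means up to 8.00.

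Folds are powers of 2 with 95% intervals of 1.96 standard errors. The 10 genes and all lists were chosen with earlier results of these data known. Named are the 10 genes, every other Snhg row, and from each list the called genes and up to 3 others with the smallest p-values. Alternatives covered threshold, adjustment, distribution, scaling and membership. Annotation came by symbol from GENCODE M21 and RefSeq, both on GRCm38, not the authors' build. Scripts (Python 3.11.15, pandas 2.3.3, scipy 1.17.1) were tested on simulated data.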

Additional observations from a re-analysis of the deposited data

How the results depend on the processing

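Of the 10 host genes, 2 were called at an adjusted p of 0.05, and also at 0.1, with Benjamini-Hochberg adjustment over every gene or over genes with means of at least 50, centred on genes with means of at least 500, and over all 17 Snhg rows or the 13 with means of 100 or more (the last chosen after seeing the data). At 0.01 the count was 1 (Snhg20; all genes 109; other lists 0, against 2 at 0.05), and centred on ribosomal protein genes, which shifts all log2 fold changes by 0.11, it was 1 (Snhg20; all genes 484, 36 higher and 448 lower; other lists 5, 0 higher and 5 lower, against 1 and 1). There Larp1 lost its call, and Znhit3, Wdr43, Eif4g2 and Ncl joined Krt8 among the lower. With that centring Snhg15 and Snhg17 turned below 0, to -0.053 and -0.091. Holm adjustment gave 0 (adjusted p = 0.226 for Snhg20; all genes 49; other lists 0). A t distribution with 2 degrees of freedom gave 0 for the host genes, for all genes and for the lists (smallest adjusted p = 0.948). No gene passed there, Nr1h2 included, so that setting cannot tell the host genes from others. At 0.1, 395 genes and 4 list members were called, against 239 and 2. Adjustment over every gene called 214 of all genes, and adjustment over genes with means of at least 50 called 222. Centring on genes with means of at least 500 called 224. The median log2 fold change of the 10 was 0.28 to 0.43 in all its alternatives, against 0.39. No paired analysis was possible because the table holds no values per sample, and leaving out replicates was not run for that reason.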

Other observations

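A wider set of host genes, drawn from the annotation after the data were seen, was read by the same columns. Beyond the Snhg rows, 13 genes of the authors' deposited table contained an annotated snoRNA on their strand and were not annotated as protein-coding. The chaperonin gene Cct6a, typed as a processed transcript in GENCODE but protein-coding in RefSeq, was left out. The median log2 fold change of the 13 was 0.30, with 10 above 0 and 3 below. Of the 12 with an adjusted p 0 were called, against 1.98% of all such genes. An unadjusted p under 0.05 was reached by 5 of the 13, and by 1602 of the 12069 genes with an adjusted p. The 13 include all the other non-coding hosts given above (Gas5, Zfas1, Dancr, Epb41l4aos and Rian), so this is no separate evidence. The largest value was that of Rab26os, at 1.15 ± 0.57 (SE), at a mean normalized count of only 23.7 in the authors' deposited table. The lncRNA row 1110038B12Rik stood at 0.40 ± 0.18 (SE) at a mean of 436 in the authors' deposited table. Over 224 protein-coding genes that contain an annotated snoRNA, outside the Snhg rows, the median log2 fold change was 0.02 (-0.092 centred on ribosomal protein genes). Of these, 116 lay above 0 and 108 below. Of the 218 with an adjusted p, 0 were called higher and 2 lower, against 0.456% and 1.52% of all such genes. The difference between non-coding and protein-coding hosts was not tested.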
